A study of Mus musculus with 2 samples.

Results

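The genes described here encode the light chains of myosin, together with the kinase that phosphorylates the regulatory light chain in heart muscle. They were chosen by symbol: Myl1, Myl2, Myl3, Myl4, Myl6, Myl7, Myl9, Myl12a, Myl12b and Mylk3. These 10 genes were found under 11 gene identifiers, because Myl12b is annotated under 2 of them, among 55536 annotated genes, and they hold 74 annotated transcripts. The data are total RNA-seq of the heart of male B6CASTF1/J mice, hybrids of a laboratory and a wild-derived strain, at an age of 10 days. A single group of 2 libraries was measured, each made from 300 ng of RNA after reduction of ribosomal RNA, with strand kept and ERCC spike-in RNAs added. No treated, mutant or older animals were compared, so the comparisons below are between genes, between transcripts and between the 2 libraries. The labels give the males the numbers 3 and 4 but link both to a single donor record, so the spread between the libraries may be partly technical.

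In a conventional myosin, each heavy chain binds an essential and a regulatory light chain at its neck. The heart uses chamber-specific pairs: Myl2 (regulatory) and Myl3 (essential) in the ventricle, and Myl7 (regulatory) and Myl4 (essential) in the atrium. Myl4 is also an essential chain of embryonic muscle, and whether its RNA here came from the atrium alone was not tested. Myl9, Myl12a, Myl12b and Myl6 serve the myosins of smooth muscle and non-muscle cells. Phosphorylation of the regulatory chain by a light chain kinase, Mylk3 in cardiomyocytes and Mylk in smooth muscle, tunes or starts contraction, and myosin phosphatase reverses it.

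The gene tables summed to 38851514 expected counts in replicate 1 and 37907585 in replicate 2. A second deposited quantification of the same reads, called the other quantification below, summed to 38688448 and 37361816 estimated counts. Levels are TPM, which corrects for length and depth and sums to a fixed total in each library, and are from the first quantification unless stated. All 10 genes stood at 1 TPM or more in both libraries. The libraries differed in 5 of 10 listed atrial markers and in all 5 listed brown fat markers, with values given beside the results they touch. In bulk tissue, fewer cells of a type and less RNA per cell cannot be told apart.

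The 5 regulatory chains carry the kinase site near the start of the protein. The coding sequence around it is shown to count how many bases differ there among the members. The 60 bases below were read from the GENCODE transcripts ending in 201 (mm10), and the capitals mark the serine codon of the kinase site, which is codon 15 in Myl2, 23 in Myl7 and 20 in Myl9, Myl12a and Myl12b.
Myl2, chr5:122101761-122101820, plus strand: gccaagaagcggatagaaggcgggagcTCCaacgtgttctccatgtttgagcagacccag
Myl7, chr11:5898444-5898503, minus strand: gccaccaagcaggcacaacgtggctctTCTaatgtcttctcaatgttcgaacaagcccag
Myl9, chr2:156778575-156778634, plus strand: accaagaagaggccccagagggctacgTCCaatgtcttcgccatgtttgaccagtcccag
Myl12a, chr17:70996791-70996850, minus strand: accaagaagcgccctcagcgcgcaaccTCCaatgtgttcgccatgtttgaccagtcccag
Myl12b, chr17:70977142-70977201, minus strand: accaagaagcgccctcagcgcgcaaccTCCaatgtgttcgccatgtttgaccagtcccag
Each stretch lay within a single exon. Myl12a and Myl12b had 0 differing bases here, Myl9 had 8 against either of them, and Myl2 and Myl7 had 20 between them. These are differences of bases. Read as codons, the printed stretches of Myl9, Myl12a and Myl12b encode the same residues.

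Over the whole coding sequence the light chains fell into their known classes. Among the 10 pairs of regulatory chains the identity was 60.7% to 96.5% of aligned bases, among the 6 pairs of essential chains 54.6% to 73.2%, and between the classes 45.4% to 50.3%. Myl12a and Myl12b, neighbours on chromosome 17, were 96.5% identical, with a longest identical run of 102 bases. Myl2 and Myl7 were 62.0% identical, with a longest run of 16 bases.

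**Figure D1:**
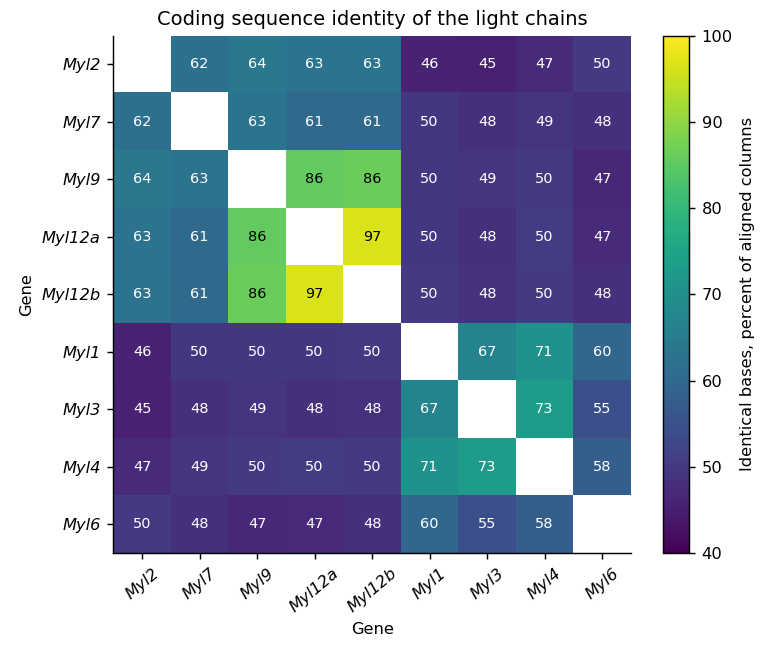
Identical bases between the coding sequences of the 9 light chain genes, in percent of aligned columns, for each pair of genes on the horizontal and vertical axes. The regulatory chains form the upper left block and the essential chains the lower right block, and the Myl12a and Myl12b pair stands highest at 96.5%.

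The ventricular and atrial essential chains, Myl3 and Myl4, are the most alike of the essential pairs at 73.2%. The 60 aligned bases with the most matches, within a single exon of each gene, are shown because they mark how little sequence separates the chains whose reads are compared below. The 5 differing bases are in capitals.
Myl3, chr9:110767991-110768050, plus strand: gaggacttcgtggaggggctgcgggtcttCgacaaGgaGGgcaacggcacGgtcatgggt
Myl4, chr11:104584522-104584581, plus strand: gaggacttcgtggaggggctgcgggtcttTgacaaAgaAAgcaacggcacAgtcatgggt
The longest identical run of this pair in the coding sequence was 29 bases, below the 31-base words used to ask which reads could fit several genes. No 31-base word of Myl2, Myl7 or Mylk3 occurred in transcripts of another gene, and no word of Myl3 or Myl4 occurred in another member. Of the words of Myl12b, 26.0% were shared with other genes, and 17.7% of those of Myl12a, mostly with each other and with the second Myl12b identifier.

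The ventricular chains were by far the most abundant members. Myl2 (chromosome 5, 122100951 to 122113472, plus strand, mm10) stood at 7897 TPM in replicate 1 and 7485 in replicate 2, a mean of 7691 ± 292 TPM (SD, n = 2), which ranked 7 among 22028 protein-coding genes. Myl3 (chromosome 9, 110741861 to 110769798, plus strand) stood at 4644 and 4572 TPM, a mean of 4608 ± 51.4, and ranked 12. Together both took 88.2% of the members' summed TPM in replicate 1 and 92.7% in replicate 2. The members as a whole took 1.42% and 1.30% of all TPM.

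After a step of 13.7-fold in mean TPM, the next gene was Myl12a, a regulatory chain of non-muscle myosin (chromosome 17, 70993656 to 71002878, minus strand), at 353 and 320 TPM. The atrial chains followed with a wide spread. Myl7 (chromosome 11, 5896637 to 5898782, minus strand) stood at 393 and 86.6 TPM, and Myl4 (chromosome 11, 104550663 to 104595753, plus strand) at 293 and 60.8 TPM. In both genes the higher value belonged to replicate 1, and the mean over the libraries (240 ± 217 and 177 ± 164 TPM) describes neither.

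Myl9, the regulatory chain of smooth muscle (chromosome 2, 156775420 to 156781658, plus strand), stood at 218 and 135 TPM. Myl6, the essential chain of smooth muscle and non-muscle myosin (chromosome 10, 128490860 to 128494145, minus strand), stood at 209 and 145 TPM. Myl4, Myl9 and Myl6 had means within a fraction of a TPM of each other, and their library values overlapped. Mylk3, the cardiac light chain kinase (chromosome 8, 85324303 to 85386345, minus strand), was at 114 and 124 TPM, and Myl12b (chromosome 17, 70973133 to 70990890, minus strand) at 93.4 and 80.5 TPM. Their library values did not overlap with each other or with those of Myl6.

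Myl1, the essential chain of fast skeletal muscle (chromosome 1, 66924295 to 66945404, minus strand), was the lowest member at 10.2 and 2.93 TPM. In the order of the 10 genes, the neighbours Myl12a and Myl7, Myl7 and Myl4, Myl4 and Myl9, and Myl9 and Myl6 had library values that overlapped. Within each library Myl7 was nevertheless above Myl4, in both quantifications, while the order of the remaining overlapping neighbours differed between the libraries. The other neighbours were apart.

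**Figure D2:**
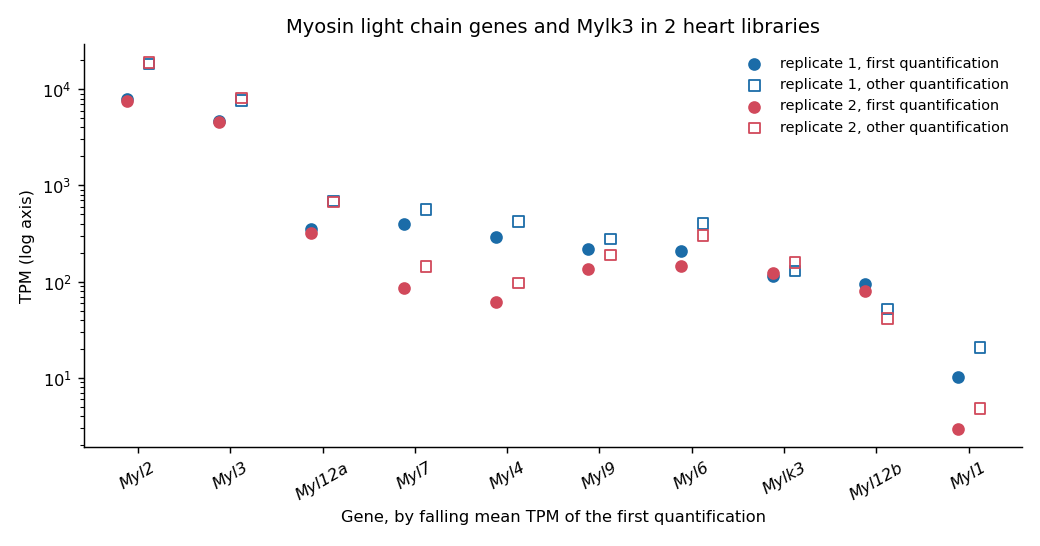
TPM of each gene (horizontal axis, by falling mean) on a log axis, with replicate 1 in blue and replicate 2 in red, filled circles for the first quantification and open squares for the other. Myl2 and Myl3 lie above all other genes in every library, and the libraries separate widely for Myl7, Myl4 and Myl1.

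The other quantification placed most members higher. Myl2 stood there at 18267 and 19021 TPM, 2.42 times the mean of the first, and Myl3 at 7604 and 8118 TPM, 1.71 times. Myl12b was lower, at 51.9 and 41.5 TPM, or 0.537 times. Myl7, with a single annotated transcript, shows the parts of such a difference: it had 5838 and 1362 expected counts at an effective length of 491 bases in the first quantification, and 4119 and 1027 estimated counts in the other, at an effective length of 253 bases in replicate 1. Its level was nevertheless higher in the other quantification, at 560 and 144 TPM. The place of Myl6 in the order by mean TPM also differed between the quantifications. Below Myl4 and Myl9 in the first, it stood above them in the other (351 TPM against 260 and 234) and close to Myl7 (352).

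Within a library, the ratio of chamber-specific chains compares genes of the same class. Myl2 exceeded Myl7 by 20.1-fold in replicate 1 and 86.4-fold in replicate 2, and Myl3 exceeded Myl4 by 15.9-fold and 75.2-fold. The ventricular chain was higher in both libraries, by log2 5.38 ± 1.49 and 5.11 ± 1.59 (SD, n = 2). An exact sign-flip permutation test over 2 libraries cannot give a p below 0.5, so no ratio was tested.

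Put as shares of TPM, Myl7 made up 4.74% of the cardiac regulatory chains Myl7 and Myl2 in replicate 1 and 1.14% in replicate 2. The matching shares of counts were 4.78% (exact Clopper-Pearson 95% interval 4.66% to 4.90%) and 1.16% (1.10% to 1.23%), which cover counting error only. Myl4 made up 5.93% of the summed TPM of Myl4 and Myl3 in replicate 1 and 1.31% in replicate 2. The other quantification gave 2.97% and 0.750% for Myl7, and 5.27% and 1.18% for Myl4. The shares of Myl7 and of Myl4 were thus several times larger in replicate 1 in both quantifications.

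The ratios within a chamber differed much less between the libraries. Myl2 over Myl3 was log2 0.77 in replicate 1 and 0.71 in replicate 2, and Myl7 over Myl4 was 0.43 and 0.51. Summed over chambers, the sarcomeric regulatory chains (Myl2 and Myl7) stood at 8290 and 7571 TPM and the essential chains (Myl1, Myl3 and Myl4) at 4947 and 4635 TPM. The regulatory chains were thus 1.68-fold and 1.63-fold higher, and 2.34-fold and 2.33-fold in the other quantification. With only the protein-coding transcripts of the first quantification, chosen after seeing the data, the excess was gone. The ratios were log2 0.04 ± 0.11 (SD, n = 2) for the sums and 0.0017 ± 0.0757 for Myl2 over Myl3. Myl7 over Myl4 rose to 1.38 ± 0.11 in that setting. The setting was not computed for the other quantification. There, protein-coding transcripts held 61.8% and 59.0% of Myl2 TPM, and 99.6% of Myl3 TPM in both libraries.

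The cardiac heavy chains that these light chains bind, Myh6 and Myh7, summed to 9365 and 9067 TPM. The essential chains stood at log2 -0.92 and -0.97 relative to them, and at -0.33 and -0.37 in the other quantification. The regulatory chains stood at log2 -0.18 and -0.26 in the first quantification but at 0.90 and 0.85 in the other, so whether they were above or below the heavy chains depended on the quantification. Among non-muscle chains, Myl12a exceeded Myl12b by 3.78-fold and 3.98-fold in the first quantification and by 13.2-fold and 16.1-fold in the other.

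Between the libraries, the expected counts were compared after TMM scaling, which matches the bulk of genes, and a gene was called where it was over 2-fold apart, had a mean count of at least 50 and its exact 95% interval left out 0 on the log2 scale. By this rule 3 of the 10 members were lower in replicate 2, namely Myl4, Myl7 and Myl1. Over all 13213 genes tested, 0.984% were called lower (130 genes), 0.802% higher (106 genes) and 1.79% either way. None of the 10 members was called higher. The members' median log2 ratio was -0.18, against 0.01 over all genes tested. All 10 intervals left out 0, as did those of 42.9% of genes tested. The intervals narrow as counts grow, so these shares do not compare genes of like counts. The interval of Myl12a took in 0 under total count scaling (-0.07 to 0.02) and ERCC spike-in scaling (-0.03 to 0.05). With a single library per labelled male the comparison between libraries has no test and describes these libraries only.

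Myl4 had 6277 counts in replicate 1 and 1374 in replicate 2, which is 4.14-fold lower in replicate 2 (log2 ratio -2.05, interval -2.14 to -1.97). Myl7 had 5838 and 1362 counts, 3.89-fold lower (log2 ratio -1.96, interval -2.04 to -1.87). The atrial regulatory and essential chains thus differed by nearly the same factor, and their intervals overlapped.

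Myl1 had 222 and 65 counts, 3.08-fold lower (log2 ratio -1.62, interval -2.05 to -1.23). The 11 markers of fast skeletal muscle were nearly absent from both libraries, with summed levels of 3.72 and 2.99 TPM. A single one, the troponin Tnni2, reached 1 TPM in both (1.81 and 1.23), and the muscle determination gene Myod1 had 0 counts in either. Mylpf, the regulatory chain that pairs with Myl1 in fast muscle, stood at 1.04 and 0.85 TPM. Of the 31-base words of Myl1, 14.5% also occurred in the pseudogene Mylf-ps, which had 0 counts in both libraries.

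**Figure D3:**
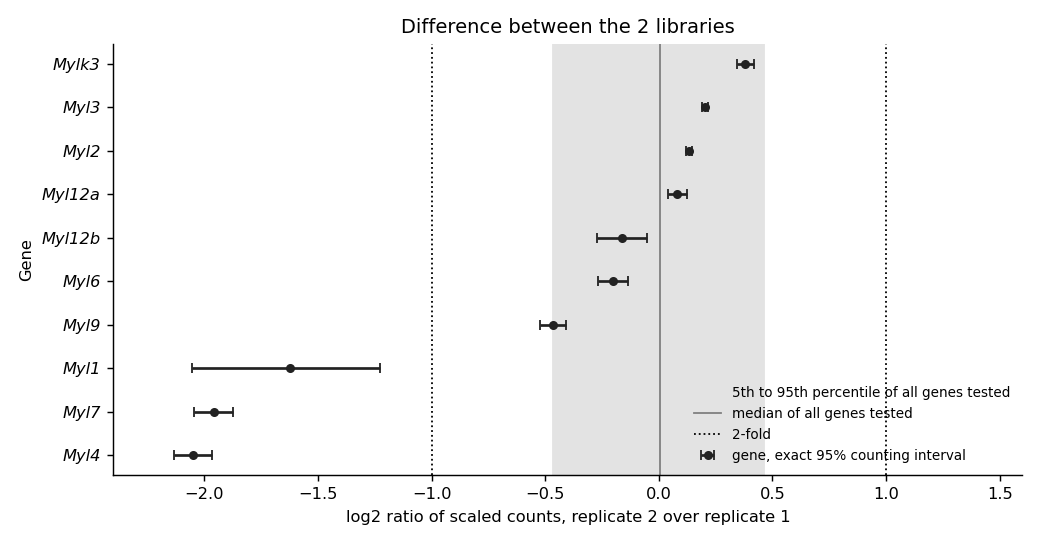
log2 ratio of scaled counts, replicate 2 over replicate 1 (horizontal axis), for each gene, with exact 95% counting intervals as bars, the 5th to 95th percentile of all genes tested in grey and 2-fold as dotted lines. Myl4, Myl7 and Myl1 lie below the lower dotted line, and the other 7 genes lie between -0.46 and 0.38.

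The ventricular chains were on the other side of 0, with small differences. Myl3 had 117674 and 122815 counts (log2 ratio 0.20, interval 0.19 to 0.21) and Myl2 116304 and 115659 (0.13, 0.12 to 0.15). The sign of both depended on the scale, since the ratio of TPM was -0.02 for Myl3 and -0.08 for Myl2, where the median of all genes was -0.21. Mylk3 had 10759 and 12703 counts, a log2 ratio of 0.38 (interval 0.34 to 0.42), and kept its sign on every scale tried.

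Of the smooth muscle and non-muscle chains, Myl9 had 6498 and 4268 counts, a log2 ratio of -0.46 (interval -0.52 to -0.41), close to the 5th percentile of all genes at -0.47. Myl6 had 4162 and 3282 counts (log2 ratio -0.20, interval -0.27 to -0.13), and Myl12b had 1495.2 and 1210.4 (-0.16, -0.27 to -0.05). Myl12a had 8949 and 8585 counts (0.08, 0.04 to 0.12), with a negative sign under total count scaling and on the TPM scale. None of these genes reached 2-fold.

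Markers of the cells that use each chain moved alongside in part, and their part in the results was not tested. The marker lists were chosen with earlier results of these data known, so their counts only describe these libraries. Of 10 atrial markers, 5 were called lower in replicate 2 and 0 higher, against 0.984% and 0.802% of all genes tested. They were the growth factor Bmp10 (5857 and 46 counts), the natriuretic peptide Nppa (753 and 116 TPM), the calcium pump regulator sarcolipin (Sln, 20.98 and 5.74 TPM), Stard10 and Dkk3. The transcription factor Nr2f2, at 10.5 and 10.1 TPM, and the potassium channel Kcna5, at 8.97 and 12.3 TPM, were not among them. No atrial marker was at 0.

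The 5 ventricular markers with enough counts had a median log2 ratio of 0.25, led by phospholamban (Pln) at 1836 and 1823 TPM, and 0 were called; Hand1 was near 0 with 2 counts in each library. The 6 cardiomyocyte markers, led by the actin Actc1 and the troponins Tnnt2 and Tnni3, had a median of 0.12 and 0 called. Of the 5 sinus node markers, Tbx3 (8.53 and 6.15 TPM) and Hcn4 (2.28 and 1.27 TPM) were tested, with a median log2 ratio of -0.39 and 0 called. Shox2, Isl1 and Vsnl1 stood under 1 TPM in both libraries, with 33, 4 and 41 counts in replicate 1 and 14, 1 and 1 in replicate 2.

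All 6 smooth muscle markers had a negative ratio, as Myl9 did, with 0 called, a median of -0.64 and summed levels of 399 and 269 TPM. The actin Acta2 was at 257 and 166 TPM, the calponin relative Tagln at 37.6 and 19.4 and the smoothelin Smtn at 87.9 and 73.5. All 6 fibroblast markers, led by the collagens Col3a1, Col1a1 and Col1a2, were also negative, with a median of -0.42 and 0 called. The pericyte markers (4 genes, median 0.08) and endothelial markers (4 genes, median -0.09) lay near 0. All 5 brown fat markers, a list likewise chosen with earlier results known, were called lower in replicate 2, against 0.984% of all genes tested. Their summed levels were 420 and 31.2 TPM, led by the uncoupling protein Ucp1 at 239 and 5.02 TPM, and none was at 0.

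**Figure D4:**
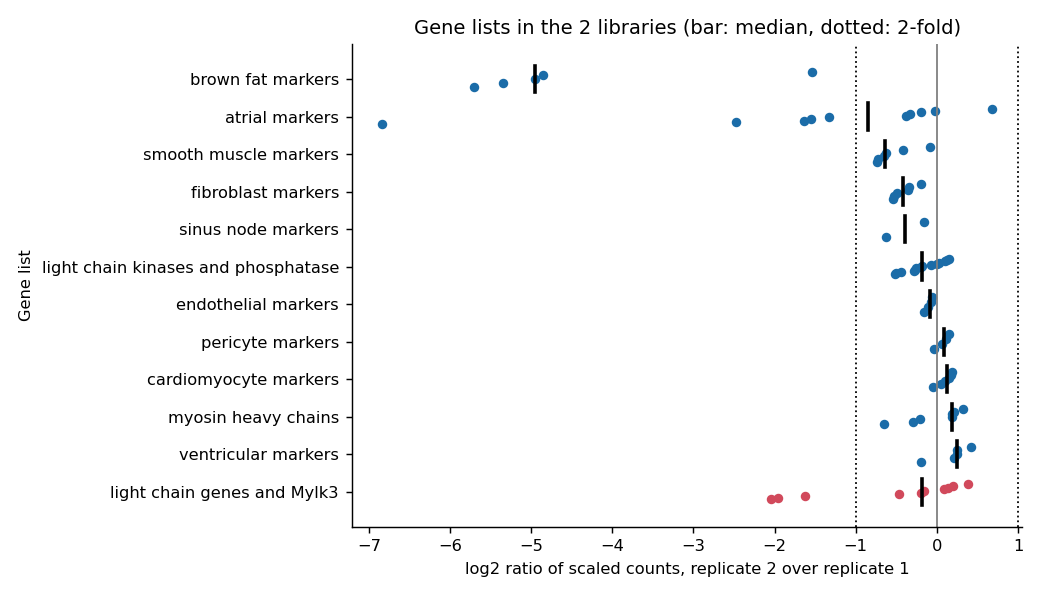
log2 ratio of scaled counts, replicate 2 over replicate 1, for each gene tested of each list (points, 1 row a list), with the median as a black bar and 2-fold as dotted lines. The light chain genes (red, lowest row) split into 3 genes near -2 and 7 near 0, and the atrial and brown fat lists reach furthest below 0.

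Of the genes with a mean of at least 10 TPM, 27 were called over 2-fold lower in replicate 2, Myl4 and Myl7 among them. With members left out, the 3 genes with the log2 ratio closest to those of Myl4 and Myl7 were taken as nearest in pattern. They were Gpd1, Ces1d and Mybphl for either gene. The glycerol phosphate dehydrogenase Gpd1 had a ratio of -1.97 (99.3 and 22.1 TPM), the carboxylesterase Ces1d -2.14 (24.0 and 5.61 TPM) and the myosin binding protein relative Mybphl -1.88 (17.5 and 4.06 TPM). The likeness is over the same 2 libraries that gave the ratio.

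Among the kinases and phosphatase subunits that act on the regulatory chains, Mylk3 was the most abundant dedicated light chain kinase in both libraries. Mylk4, a related kinase, stood at 53.0 and 32.0 TPM, Mylk at 17.4 and 12.3 TPM, and the skeletal muscle kinase Mylk2 under 1 TPM with 14 and 7 counts. Mylk3 exceeded Mylk by log2 2.71 in replicate 1 and 3.33 in replicate 2. The difference between these ratios follows the opposite signs of the kinases between the libraries, 0.38 for Mylk3 and -0.44 for Mylk (interval -0.54 to -0.35).

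Of the 15 genes on this list, 14 were detected and tested and 0 were called, with a median log2 ratio of -0.19. The catalytic phosphatase subunit Ppp1cb was the highest at 186 and 178 TPM. Its targeting subunits Ppp1r12a, Ppp1r12b and Ppp1r12c lay between 32.3 and 54.1 TPM in both libraries, and the inhibitor Ppp1r14a was at 11.6 and 6.95 TPM. Rhoa, which acts on the phosphatase through Rock1 and Rock2, was at 137 and 103 TPM.

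The cardiac heavy chains were also far above those of other myosins. Myh6, the alpha chain of the mouse heart, stood at 8595 and 8333 TPM and Myh7, the beta chain, at 769 and 734. The non-muscle chains Myh9 (86.0 and 63.9 TPM), Myh10 (33.2 and 24.7) and Myh14 (15.5 and 15.1) and the smooth muscle chain Myh11 (11.4 and 6.22) were lower. Myh7b stood at 23.5 and 22.3 TPM. Of 12 heavy chain genes, 7 were detected and 0 called. The remaining light chain genes were scarce: Myl6b stood at 1.88 and 1.45 TPM and Myl10 was listed at 0 in both libraries.

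The deposited transcript tables divide each gene among its annotated transcripts. The transcript with the largest mean share was the same in both quantifications for 6 members (Myl1, Myl2, Myl3, Myl7, Myl9 and Mylk3) and different for 4 (Myl4, Myl6, Myl12a and Myl12b). Of Myl3, the transcript Myl3-201 held 99.4% ± 0.118 of TPM (SD, n = 2) in the first quantification and 68.3% in the other, where Myl3-205, with a start at 110741861, held a further 29.2% but was listed at 0 in the first. Of Myl9, Myl9-201 held 94.5% in the first quantification and 100% in the other. Of Mylk3, Mylk3-201 held 76.5% ± 1.63 and 73.7%, and Mylk3-202 16.4% and 25.5%.

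Myl2 was divided between a full-length and a shorter form. Myl2-201, which encodes the chain, held 58.9% ± 1.51, and Myl2-210, a processed transcript of 467 bases annotated from an internal start at 122103181, held 39.96% ± 1.52. In the other quantification these held 41.5% and 16.2%, and 2 further short models, Myl2-208 and Myl2-209, held 19.6% and 18.5%. Protein-coding transcripts together held 60.8% and 58.7% of Myl2 TPM in the first quantification and 61.8% and 59.0% in the other. These near-equal totals are made of different transcripts. The total of the other quantification includes Myl2-209, annotated as protein-coding, which held 18.5% there and 0.075% in the first.

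Myl4 had no transcript above 50%. Myl4-204, a retained intron model from 104580325 to 104587209, held 46.2% ± 2.06 and Myl4-202, which is protein-coding, 44.1% ± 6.01 in the first quantification. In the other, Myl4-203, protein-coding with a start at 104576985, held 64.9% and Myl4-204 31.9%. The lower level of Myl4 in replicate 2 was seen in both forms, with Myl4-204 at 131 and 29.0 TPM and Myl4-202 at 141 and 24.2 TPM.

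Myl1 has an upstream and an internal start, which give the long and the short form of this chain in fast muscle. Transcripts from the internal starts between 66935333 and 66935637 held 89.2% of Myl1 TPM in replicate 1 and 81.2% in replicate 2, and 61.1% and 62.3% in the other quantification. Both quantifications thus placed most of the Myl1 RNA at the internal start, from 222 and 65 counts.

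For the non-muscle chains the transcript shares could not be settled. Myl12a-210 held 82.9% of Myl12a in the first quantification and 5.88% in the other, where Myl12a-201 held 54.0%. Myl12b-202, a retained intron model of 369 bases, held 67.1% of Myl12b in the first quantification and 0.858% in the other, where Myl12b-204 held 61.7%. The second Myl12b identifier, whose transcripts start among the upstream starts of Myl12a and span both genes (chromosome 17, 70974119 to 71002208), had 516 and 436 counts in the first quantification but 14.3 and 0 in the other. Of its 31-base words, 97.2% occurred in other genes. Levels of Myl12a, Myl12b and the second identifier are therefore uncertain as to how reads were divided among them.

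**Figure D5:**
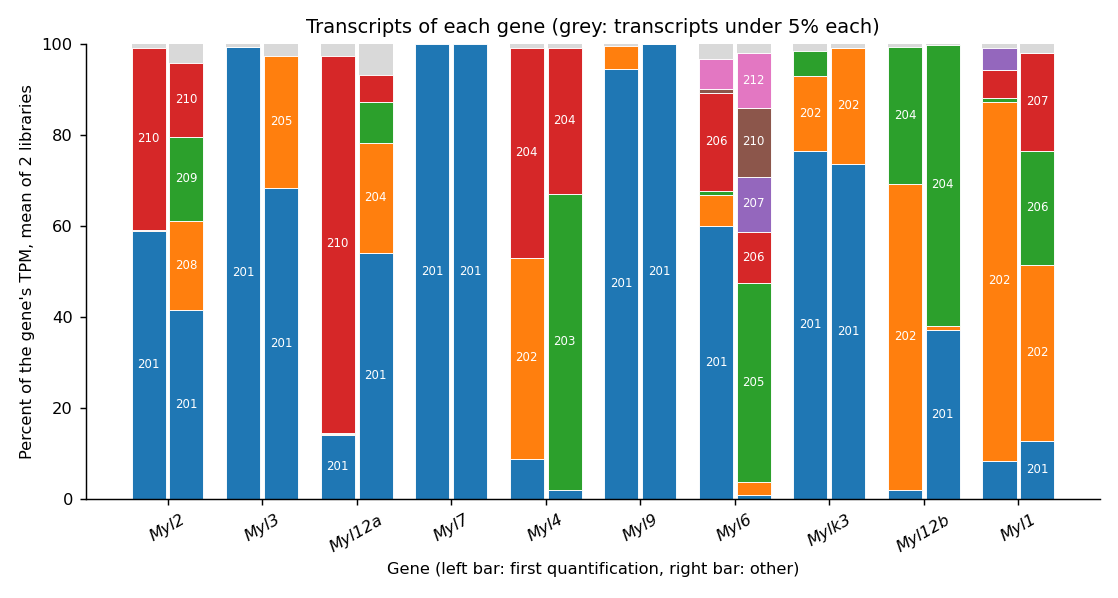
Share of each transcript in its gene's TPM (vertical axis, percent, mean of 2 libraries) for the first (left bar) and the other quantification (right bar), with the number of the transcript name printed where the share is large enough. Myl7, Myl9 and Mylk3 look alike in both bars, and Myl4, Myl6, Myl12a and Myl12b do not.

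Myl6 has a short cassette exon near its end, exon 6 of 7 in Myl6-206, of 45 bases, whose first 26 bases are coding and supply the end of the chain in that form. It is shown because it is the sequence in which the forms of Myl6 differ.
Myl6 exon 6, coding bases, chr10:128491739-128491764, minus strand: catttgtgaggcatatcctgtcgggg
Over transcripts that include the exon or join its neighbours, it was included in 22.7% of TPM in replicate 1 and 25.6% in replicate 2, a mean of 24.2% ± 2.09. The other quantification gave 15.3% and 17.8%. The form that leaves the exon out was the larger in both libraries and both quantifications, but through different transcripts. Myl6-201 held 60.1% of Myl6 TPM in the first quantification and 0.924% in the other, where Myl6-205 held 43.6%. Transcripts of neither kind held 17.4 and 18.9 TPM in the first quantification and 122 and 102 TPM in the other. Of the 31-base words of Myl6, 11.4% occurred in 7 other genes, mostly processed pseudogenes, of which Gm5526 had 384 and 273 counts.

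The annotated starts allow a look at the promoters. RefSeq (GRCm38.p6) lists 13 start windows for the 10 genes, and 6 of these starts lay within 50 bases of the start of the gene's largest transcript. For Myl7 the distance was 0 bases and for Myl3 32 bases. For Myl2 the listed starts lay 7762 and 8227 bases upstream and for Myl4 29662 bases, so their windows are not shown. The windows of the atrial chain Myl7 and the ventricular chain Myl3 follow, read toward the start and ending just before the annotated transcript. Capitals mark every match on either strand to CATTCC (the M-CAT motif) or to the CArG box.
Myl7, chr11:5898783-5899032, minus strand: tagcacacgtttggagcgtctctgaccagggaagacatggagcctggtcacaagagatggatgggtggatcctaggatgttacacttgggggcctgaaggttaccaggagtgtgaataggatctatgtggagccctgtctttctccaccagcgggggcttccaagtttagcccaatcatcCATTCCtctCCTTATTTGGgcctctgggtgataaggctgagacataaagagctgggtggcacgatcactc
Myl3, chr9:110763428-110763645, plus strand: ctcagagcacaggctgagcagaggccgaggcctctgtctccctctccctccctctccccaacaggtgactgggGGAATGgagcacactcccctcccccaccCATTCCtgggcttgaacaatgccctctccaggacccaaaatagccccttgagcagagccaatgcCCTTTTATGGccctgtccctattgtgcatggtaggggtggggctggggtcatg
The CArG box, a sequence bound by serum response factor, occurred in 4 of the 13 windows, those of Myl3, Myl6, Myl7 and Myl9. It occurred in 1.47% of 32851 promoter windows of the same length. The Myl6 match lay in a window whose start was 866 bases from that of its largest transcript. The Myl6 window whose start lay 11 bases from it had no CArG box. CATTCC occurred in 4 windows (Myl1, Myl3, Myl7 and Mylk3) and in 12.64% of all. TATAAA and AGATAA occurred in 2 windows each, against 12.37% and 9.99% of all, and CANNTG, the E-box, in 8 windows against 66.22%. The MEF2 site was in none of the 13 windows and in 2.92% of all. All searches covered the 250 bases before the RefSeq start on both strands, no capitalised matches overlapped, and a match is a match of letters only.

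Annotated genes on the opposite strand overlap several members, which matters where counting does not use strand. The parathyroid hormone receptor gene Pth1r overlaps Myl3 and had 304 and 362 counts. Ccdc63, opposite Myl2, had 6 and 2 counts, and the genes opposite Myl4 had at most 1. The sarcomere gene Myom1, opposite Myl12a over 246 bases, had 49918 and 51842 counts. Its part in the Myl12a level was not tested.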

How the data were processed

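Heart RNA of 1 group was measured in 2 libraries, and replicate numbers follow the labels. Per the labels and the deposited notes, the authors annotated genes with GENCODE M21 on mm10. Aligner, programs and use of strand in counting: not given in the sources used here. In the authors' first quantification, reads that fit several transcripts are divided into expected counts; the other deposited quantification gives estimated counts, and ratios used both after rounding. The deposited TPM was scaled by the authors over all rows of a file, the authors' tables also give a transcript's percent of its gene, recomputed here from TPM, and deposited FPKM served as an alternative. The 26248 rows that name no gene held 3.89 and 3 counts and were left out.

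The members and gene lists were chosen with earlier results of these data known. Ratios used TMM sizes from edgeR 4.0.16 (DESeq2 1.42.0 size factors as an alternative, R 4.3.3), 0.5 added to each count, a minimum mean count of 50 and exact Clopper-Pearson 95% intervals, which cover counting error only. Log2 ratios of TPM used a pseudocount of 0.1. The calculation was tested on simulated data. Sequences came from GENCODE M21 transcripts and RefSeq promoters (Biopython 1.88 alignment, Python 3.11.15). Named genes were all members, detected genes of the light chain, kinase and heavy chain lists, the leading, called or near-absent genes of marker lists, transcripts of at least 5% of a gene, and the nearest genes to Myl4 and Myl7. Alternatives changed the quantification, unit, scaling, filter, pseudocount and library.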

Additional observations from a re-analysis of the deposited data

How the results depend on the processing

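Of 250 alternative values, not counting those that leave out a library, 187 stayed within the spread or on the same side of the call and 63 moved. Leaving out 1 of 2 libraries cannot move a level, pair or share beyond 1 SD and says nothing of stability. Part of the 187 says nothing of it either. For levels and pairs the spread was 1 SD of the 2 libraries. For the levels of Myl4 and Myl7 this SD was nearly the mean itself (164 of 177 and 217 of 240 TPM). A large change of these genes, such as 0.541 times for Myl4 with protein-coding transcripts only, thus counted as within the spread. A lower minimum count cannot change a member's ratio or call, since all 10 members already passed the filter. FPKM and TPM differ by a factor common to all genes of a library, so FPKM cannot test levels or pair ratios. Rescaled FPKM gave 1.009 times the mean TPM for each member. The TPM ratio changes the unit, the scaling and the added constant together. The 10 members stayed detected, and 3 members lower and 0 higher were counted, under every scaling, filter and quantification tried; of the 10 atrial markers, 5 stayed lower under total count scaling and with the other quantification. Over all genes, 130 were lower and 106 higher under TMM scaling, 171 and 89 under total count, 214 and 71 on the TPM scale, 126 and 62 with the other quantification, and 337 and 317 with a minimum mean count of 10. The median of all genes tested moved from 0.01 to -0.10 under total count and to -0.21 on the TPM scale, and the signs of Myl12a (both) and of Myl2 and Myl3 (TPM scale) changed with it. Myl2 over Myl7 was log2 4.33 to 6.43 and Myl3 over Myl4 3.99 to 6.23 with either library left out. With only the protein-coding transcripts of the first quantification, chosen after seeing the data, Myl2 had a mean of 4598 TPM. Myl4 had 95.6 and Myl12b 28.2. The same setting gave log2 4.64 for Myl2 over Myl7 and 6.01 for Myl3 over Myl4. It moved the sarcomeric regulatory chains over the heavy chains to -0.81. Both Myl12b identifiers summed gave 115 TPM. A protein-coding transcript was the largest for 8 members, for 10 by counts or in the other quantification, and in replicate 1 alone Myl4-202 exceeded Myl4-204. No paired analysis was possible because both libraries belong to 1 group. With 65 counts in replicate 2, depth limits Myl1 most.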
